A study of Mus musculus with 2 samples.

Results

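Collagens are secreted or membrane-bound proteins whose 3 chains wind into a triple helix, and their genes were followed here through the cells of the embryonic mouse cochlea. The family was taken as every gene symbol of the form Col, number, a, number in the deposited gene table with at least 10 unique molecular identifiers (UMIs, each counting 1 captured RNA molecule) over both libraries. Of 44 such symbols, 41 met this rule, out of 32285 genes in the table. Col6a4, Col6a5 and Col10a1, with 7, 1 and 9 UMIs, did not. In total the family made up 0.624% of the UMIs of the wild-type library and 0.461% of those of the mutant library.

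Cochleae were dissected at E16.5, in late gestation, from wild-type (WT) mice and from Emx2Cre;Ptch1f/f mice, both on a mixed 129/SvEv, C57BL/6N background, and 8 cochleae per genotype were digested into single cells for 10x Genomics 3′ sequencing. Ptch1 encodes the receptor that holds Hedgehog signalling off in the absence of ligand, and Emx2Cre removes it from cells that express or have expressed Emx2. The labels do not give the alleles the wild-type mice carry, the floxed exons or the number of embryos. With 1 library per genotype there is no replicate check and no test, intervals cover counting error only, and genotype and library cannot be told apart.

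Fibrillar collagens, such as types I, II, III, V, XI and XXVII, assemble into the fibres that carry load. Fibril-associated collagens, such as type IX, sit on the surface of these fibres, and type IV forms the sheet of basement membranes. In the cochlea, types II, IX and XI are known as constituents of the tectorial membrane that covers the hair cells, and mutations in their genes are known causes of hearing loss. Type IV chains line the vessels and epithelia, and chains 3, 4 and 5 of type IV are those altered in Alport syndrome, which includes deafness.

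The wild-type library held 6500 barcodes and 61130806 UMIs, and the mutant library 12326 barcodes and 100135532 UMIs, with medians of 7333 and 6524.5 UMIs per barcode. After filtering, 6108 and 8670 barcodes remained, and 25 barcode sequences occurred in both libraries. Clusters were made without any collagen gene and named from markers that hold none. The comparison of genotypes uses 1699 wild-type and 2071 mutant epithelium-like barcodes, 2788 and 4539 mesenchyme-like barcodes, and 438 and 450 glia-like barcodes. Levels are UMIs scaled to CPM, counts per 1000000 UMIs of the class, and pairs of values give the wild type first. All 9 epithelial, 9 mesenchymal and 7 glial class markers stood at 10 CPM or more in their own class in each library. Clusters were named from these lists with that limit, so this is no check of the names. Epithelium also had 9 and 4 of the 9 mesenchymal and 5 and 5 of the 7 glial markers at that level. Mesenchyme had 2 and 3 of the 9 epithelial markers there. Ptch1, the targeted gene, was at 29.1 and 183.5 CPM in epithelium, at 20.1 and 23.2 CPM in mesenchyme, and at 96.7 and 64.2 CPM in glia. Since 3′ tags count transcripts with or without an excised exon, these levels check neither the deletion nor the labels. For Emx2 itself, epithelium had 17.7 and 31.9 CPM, whereas mesenchyme had 0.169 and 0.244 CPM.

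The class with the highest level of each collagen was largely the same in both libraries. Over the 8 classes with at least 50 barcodes in each library, 34 of the 41 collagens had the same top class. Mesenchyme was the top class of 23 wild-type and 20 mutant collagens, followed by pericytes and smooth muscle with 7 and 6, glia with 5 and 7, epithelium with 4 and 4, and endothelium with 2 and 3. The top classes of Col17a1, mesenchyme in the wild type and neuron-like barcodes in the mutant, rest on 1 UMI each. So does that of Col4a3, pericytes and smooth muscle, in each library. Col4a3 and Col17a1 had only 11 and 12 UMIs over both libraries. Collagen levels of neuron-like and erythroid-like barcodes are not taken up further, since 6 mesenchymal markers stood there at 14.6% to 18.7% and 7.53% to 13.5% of their mesenchymal level in the wild type. Epithelium is taken up, but its share was no lower in the wild type, at 15% to 21.3% (1.93% to 3.35% in the mutant). Its wild-type levels and ranks below therefore carry the same limit.

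**Figure D1:**
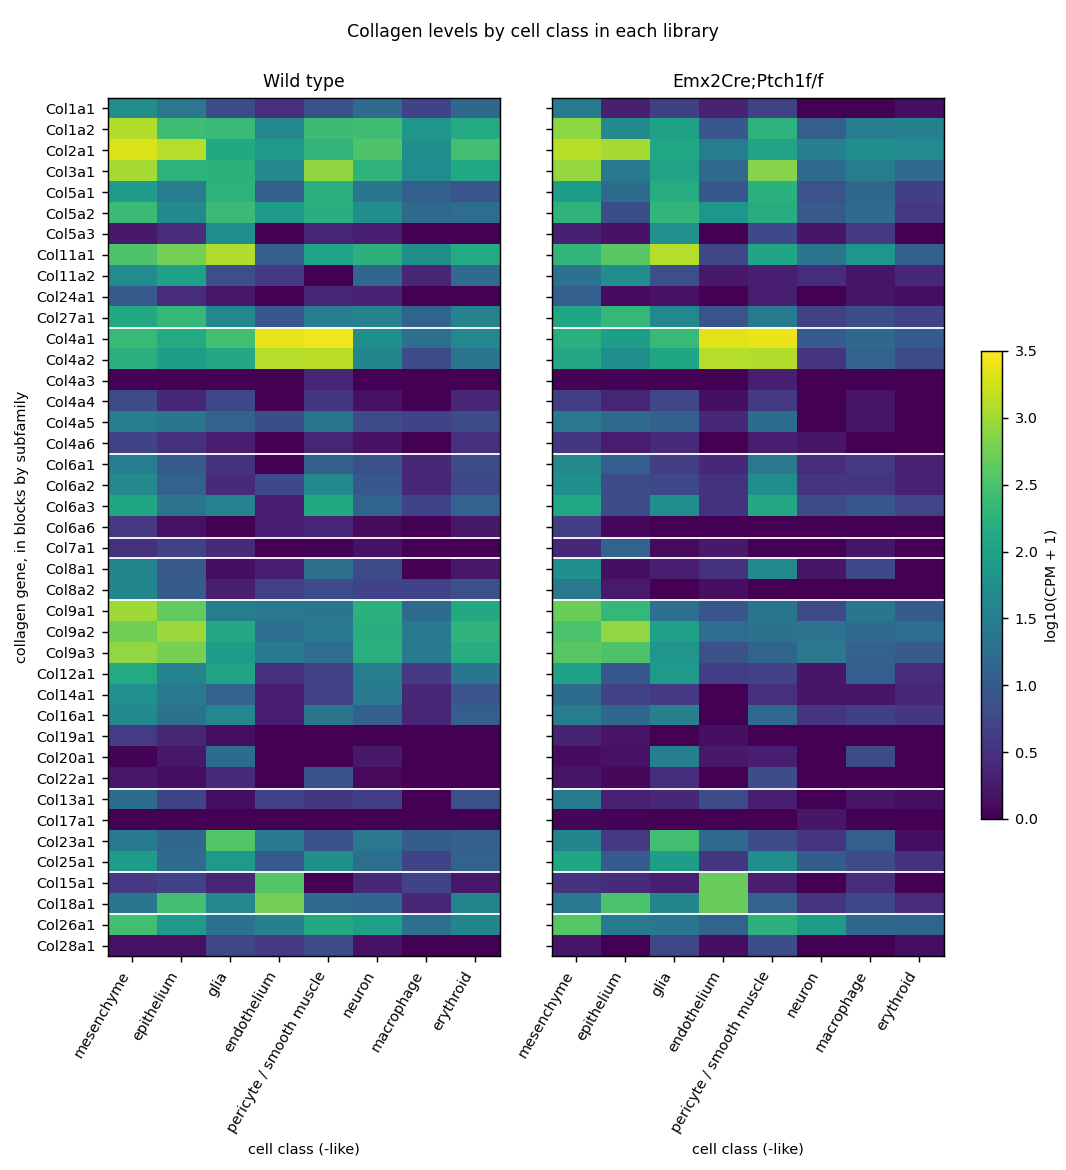
Level of each of the 41 collagens, as log10(CPM + 1) from dark to bright, in 8 cell classes (columns) of the wild-type library (left) and the Emx2Cre;Ptch1f/f library (right), with white lines between subfamilies. Col4a1 and Col4a2 are brightest in endothelium and pericytes, Col11a1 and Col23a1 in glia, Col2a1 and Col1a2 in mesenchyme, and Col9a2 in epithelium.

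Mesenchyme-like cells, which include the otic capsule and the fibrocytes of the lateral wall among their possible types, held the highest levels of the classical fibrillar chains. Col2a1, the gene of the cartilage-type collagen II, was at 1991 and 1346 CPM in mesenchyme. Its level in epithelium followed with 1294 and 1073 CPM, so that Col2a1 was abundant in both tissues. Col1a2, a chain of collagen I, was at 1229 and 811.2 CPM in mesenchyme, in the mutant 4.41 times the level of pericytes, the next class. Col3a1, the chain of collagen III, which is typical of soft and vascular tissue, was shared between mesenchyme (1068 and 884.1 CPM) and pericytes (817.8 and 739.9 CPM). In pericytes the 6 mesenchymal markers named below stood at 7.88% to 96.6% and 4.55% to 92.9% of their mesenchymal level, and 57.0% and 54.4% of these barcodes were over the limit on other lineages' genes described below. The part of mesenchymal RNA in the pericyte levels was not tested.

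Other genes with mesenchyme as their top class in both libraries covered most subfamilies. Col9a1 (1017 and 511.4 CPM) and Col9a3 (857.4 and 391.2 CPM), chains of the fibril-associated collagen IX, had epithelium as the runner-up. Col26a1, a little-studied secreted collagen, was at 274.7 and 374.2 CPM, and Col25a1, a membrane-spanning collagen known from brain and muscle innervation, at 83.4 and 116.3 CPM. The same top class was seen for Col1a1, Col4a5, Col4a6, Col6a1, Col6a6, Col8a1, Col8a2, Col12a1, Col13a1, Col14a1, Col19a1 and Col24a1. Several members had no clear top class. Col5a2 stood at 242.7 CPM in mesenchyme and 242.2 CPM in glia of the wild type and Col16a1 at 43.5 and 42.6 CPM, differences within counting error, and both had glia on top in the mutant. Col4a2, Col4a4, Col5a1 and Col6a2 also changed their top class between the libraries, with 1.03 to 1.38 times the level of the runner-up.

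Vessel-associated cells were set apart by the basement membrane chains. Col4a1 reached 2309 and 2158 CPM in endothelium and 2679 and 2534 CPM in pericytes and smooth muscle, against 226 and 167.7 CPM in mesenchyme. Col4a2, its partner in the collagen IV heterotrimer, was at 1269 and 1300.0 CPM in endothelium and 1376 and 1246 CPM in pericytes. With each barcode thinned to 2000 UMIs, 90.7% and 95.7% of endothelial barcodes held a Col4a1 UMI, against 1.41% and 3.55% of macrophage barcodes, which should lack it. Unthinned shares were 97.3% and 97.5% in endothelium and 15.5% and 8.38% in macrophages, at median depths of 9443 and 14178 UMIs and 9863 and 9237 UMIs. Thinning left out 0 and 4 endothelial and 0 and 26 macrophage barcodes. Both multiplexins, basement membrane collagens that carry sugar chains, also peaked in endothelium. Col15a1 was at 364 and 489.6 CPM there and at 4.13 and 2.25 CPM in the next class, while Col18a1, the precursor of endostatin, was at 586.8 and 491.1 CPM with epithelium next at 280.7 and 325 CPM.

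Glia-like cells, which hold the Schwann and satellite cell lineage of the cochlear nerve, had the highest class level of 4 collagens in both libraries. Col11a1, a chain of the thin fibrils of collagen XI, was at 1222 and 1288 CPM, which was 2.05 and 3.24 times its level in epithelium. It was not confined to glia, with 346 and 200.9 CPM in mesenchyme. In the wild type, the epithelial cluster led by Smoc2 had a higher Col11a1 level than glia. After thinning, 84.7% and 85.7% of glial barcodes held a Col11a1 UMI, against 9.86% and 5.67% of macrophage barcodes (unthinned 97.0% and 97.3% against 11.3% and 11.4%, at median depths of 5961.5 and 8048.5 UMIs in glia). Col23a1, a membrane-spanning collagen, stood at 363.2 and 276.3 CPM, 14 and 7.44 times the next class. Col5a3, known from Schwann cells, was at 55.1 and 58.2 CPM and below 5 CPM in each other class of both libraries. Col20a1 was at 16.4 and 31.8 CPM.

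Epithelium-like cells, which form the cochlear duct with its sensory and secretory domains, were the top class of 4 collagens in both libraries. Col9a2 was at 950.4 and 849.8 CPM, 1.73 and 2.62 times the mesenchymal level. Col27a1, a fibrillar collagen of cartilage and developing epithelia, stood at 211.2 and 210.2 CPM, and Col11a2 at 100.5 and 51.6 CPM. Col7a1, the anchoring fibril collagen of epithelial basement membranes, was the lowest of these in UMIs, with 70 and 241 over the class (3.84 and 11.9 CPM). The chains of collagen IX did not peak in 1 tissue, since Col9a2 was highest in epithelium while Col9a1 and Col9a3 were highest in mesenchyme. The remaining members with a vascular peak rest on few UMIs. In pericytes Col6a3 had 101 and 134, Col22a1 5 and 6, Col28a1 4 and 6, and Col4a3 1 and 1. For Col6a3 the pericyte level (133.2 and 129.6 CPM) was close to that of mesenchyme (111.8 and 122.8 CPM).

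Genes of chains that assemble together varied together over clusters, though not all of them. Over 27 wild-type and 25 mutant clusters with at least 50 barcodes, Spearman's rho of CPM was 0.97 and 0.945 for Col4a1 with Col4a2, 0.917 and 0.925 for Col9a2 with Col9a3, and 0.89 and 0.857 for Col6a1 with Col6a2. Among pairs from different collagens it was 0.919 and 0.929 for Col2a1 with Col9a1, and 0.476 and 0.822 for Col1a1 with Col3a1. For Col15a1 with Col18a1 it was 0.297 and 0.373. High values were therefore not particular to chains of the same collagen. Lower values in at least 1 library were found for Col1a1 with Col1a2 (0.593 and 0.807), Col4a5 with Col4a6 (0.449 and 0.727), Col8a1 with Col8a2 (0.734 and 0.323), Col11a1 with Col11a2 (0.654 and 0.664), and Col4a3 with Col4a4 (0.222 and 0.229), where Col4a3 had 11 UMIs in all. Clusters of 1 library share its depth and free RNA, so these coefficients describe the clusters and carry no test. In the RefSeq annotation of GRCm38.p6 the first bases of Col4a1 and Col4a2 lie head to head and overlap by 22 bases, and Col4a6 and Col4a5 start 1342 bases apart on opposite strands of chromosome X.

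RefSeq promoter windows (GRCm38.p6) were found for 32 of the 41 members, and 3 are shown because the comparisons that follow turn on their genes: Col9a1 and Col11a2, lower in mutant mesenchyme and epithelium, and Col7a1, higher in mutant epithelium, each with all barcodes counted. Each window covers the 250 bases before the first base of the annotated transcript on the plus strand, 5′ to 3′, at chr1:24177360-24177609 for Col9a1 (the upstream of its 2 starts), chr17:34038888-34039137 for Col11a2 and chr9:108953336-108953585 for Col7a1, and none overlaps an exon in GENCODE vM21. Capitals mark a GC box, a CCAAT box or a TATA box in either orientation.
Col9a1: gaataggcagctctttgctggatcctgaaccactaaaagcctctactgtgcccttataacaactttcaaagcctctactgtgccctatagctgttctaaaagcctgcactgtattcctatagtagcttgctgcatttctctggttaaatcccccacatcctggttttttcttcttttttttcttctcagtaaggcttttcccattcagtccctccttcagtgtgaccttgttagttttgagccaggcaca
Col11a2: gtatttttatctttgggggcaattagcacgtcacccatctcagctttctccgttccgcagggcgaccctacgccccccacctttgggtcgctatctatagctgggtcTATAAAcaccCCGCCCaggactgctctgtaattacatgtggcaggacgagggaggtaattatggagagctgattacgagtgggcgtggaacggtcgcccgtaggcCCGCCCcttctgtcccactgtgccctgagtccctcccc
Col7a1: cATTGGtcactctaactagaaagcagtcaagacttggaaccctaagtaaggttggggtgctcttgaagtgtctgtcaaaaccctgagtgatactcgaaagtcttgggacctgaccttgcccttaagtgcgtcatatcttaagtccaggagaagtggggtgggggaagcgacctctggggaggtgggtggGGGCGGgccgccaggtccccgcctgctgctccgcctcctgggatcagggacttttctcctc
Col11a2 held 2 GC boxes (GGGCGG, both strands searched) and a TATA box (TATAAA), Col7a1 a GC box and a CCAAT box (CCAAT), and the Col9a1 window none of them. Over 35 collagen windows the GC box occurred in 57.1%, against 32.7% of all 32851 windows, the CCAAT box in 34.3% against 33.8%, and the TATA box in 11.4% against 12.4%. The letters GACCACCCA, the consensus bound by the Gli factors of the Hedgehog pathway, occurred in 0 of 35 collagen windows and in 0.225% of all windows. A match describes letters only, and 3′ tags do not tell the 2 starts of Col9a1 apart.

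In mutant mesenchyme 2 of 9 fibril-associated and 1 of 11 fibrillar collagens were at least 2-fold lower, and all other collagens measured differed by less than 2-fold, among them the type VI and transmembrane chains, which had ratios above 0. Changes are given as log2((CPM mutant + 1)/(CPM wild type + 1)), and a gene was counted as higher at 1 or above and as lower at -1 or below, which is 2-fold. Of the 39 collagens with at least 10 UMIs in mesenchyme, 3 were at least 2-fold lower, where 0.53% of all genes with that many UMIs were, and 0 were at least 2-fold higher, where 0.475% were. The median over the 39 was -0.31, against 0.04 over all genes. The 3 are Col14a1, Col11a2 and Col9a3.

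**Figure D2:**
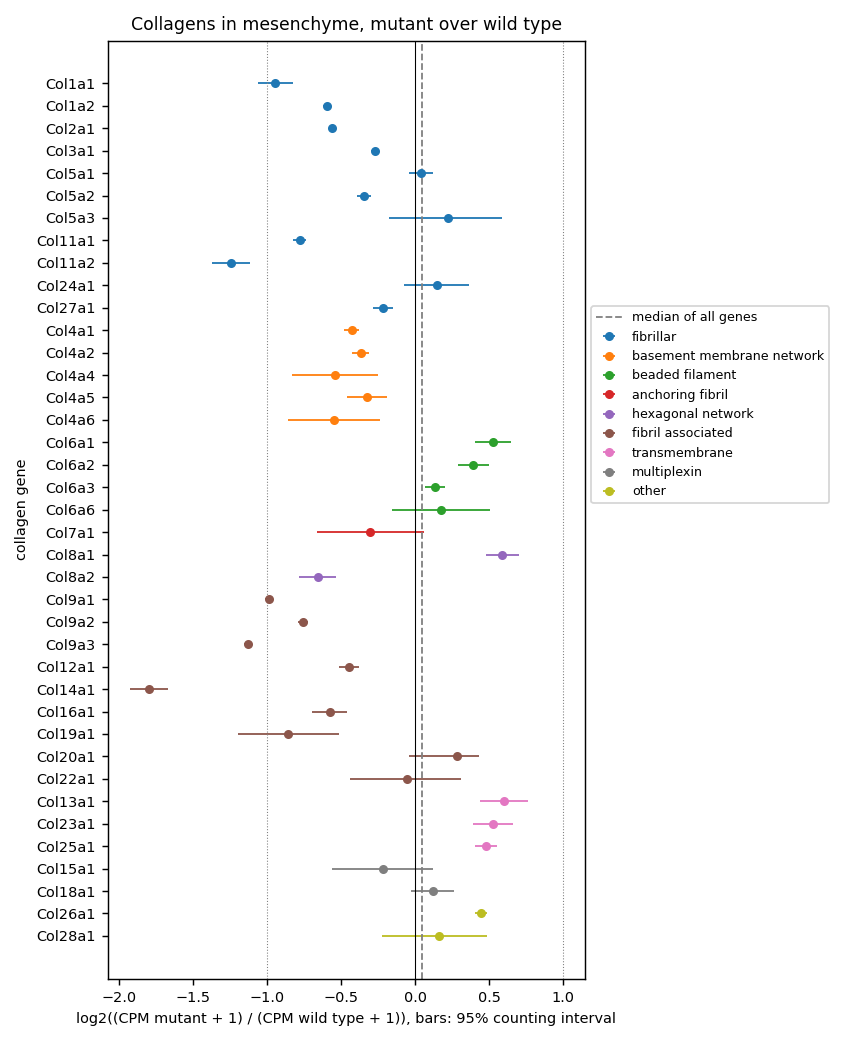
Log2 ratio of mutant to wild-type CPM (1 CPM added) of the 39 collagens measured in mesenchyme, coloured by subfamily, with 95% counting intervals. Dotted lines mark 2-fold and the dashed line the median of all genes (0.04). Col14a1, Col11a2 and Col9a3 lie past the lower line, and the 4 type VI chains lie to the right of 0.

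Among fibril-associated collagens, Col14a1, whose protein binds fibrils together with small proteoglycans, was at 58.7 and 16.1 CPM, a log2 ratio of -1.80 (95% counting interval -1.93 to -1.67). Col9a3 was at 857.4 and 391.2 CPM, a ratio of -1.13 (-1.16 to -1.10). Col9a1 lay at the 2-fold line with -0.99 (-1.02 to -0.96), and Col9a2, at 549.9 and 324.7 CPM, with -0.76. All 3 chains of collagen IX were therefore lower in the mutant, by differing amounts. Col12a1, found in dense connective tissue, had 134.9 and 98.6 CPM (-0.45), and Col16a1 43.5 and 28.8 CPM (-0.58). The rest of this subfamily, Col19a1, Col20a1 and Col22a1, stayed at or under 3.04 CPM.

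Fibrillar chains were mostly lower too, with 1 of the 11 measured past 2-fold. Col11a2 was at 48.3 and 19.8 CPM, a ratio of -1.24 (-1.37 to -1.12), and its partner Col11a1 at 346 and 200.9 CPM (-0.78). Col1a1, the major chain of collagen I, had 52.3 and 26.7 CPM (-0.94), while the ratio of Col1a2 was -0.60 and that of Col2a1 -0.57. Col3a1 (-0.27), Col5a2 (-0.35, from 242.7 to 190.8 CPM) and Col27a1 (-0.22, from 132.5 to 113.8 CPM) were closer to 0. Col5a1, a regulator of fibril diameter, was at 84.5 and 86.8 CPM (0.04, interval -0.04 to 0.12) and so did not differ beyond counting error. Col5a3 and Col24a1 had intervals that include 0.

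Every measured basement membrane chain was lower in mutant mesenchyme, none by 2-fold: Col4a1 (-0.43), Col4a2 (-0.37, from 164.3 to 126.9 CPM), Col4a5 (-0.33, from 30.3 to 24.0 CPM), Col4a4 (-0.55) and Col4a6 (-0.55). In contrast, all 4 measured chains of the beaded filament collagen VI, which surrounds cells in many connective tissues, had ratios above 0. Col6a1 was at 30.2 and 43.9 CPM (0.52, interval 0.40 to 0.65), Col6a2 at 43.1 and 56.7 CPM (0.39), and Col6a3 at 111.8 and 122.8 CPM (0.13). For Col6a6 the interval included 0. The 3 measured transmembrane members were higher as well: Col13a1 (16.1 and 24.8 CPM, 0.60), Col23a1 (25.5 and 37.2 CPM, 0.53) and Col25a1 (0.48). Col26a1 had a ratio of 0.44 and Col18a1 one of 0.12 with an interval from -0.03 to 0.26. The hexagonal network chains parted, with Col8a1 at 37.4 and 56.7 CPM (0.59) and Col8a2 at 39.0 and 24.3 CPM (-0.66). Col7a1, Col15a1 and Col28a1 were at or under 2.79 CPM and had intervals that include 0.

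Lower levels of Col9a1, Col9a3, Col11a2 and Col14a1 in the mutant were seen in most of the separate mesenchymal clusters as well, though not always by as much. The median cluster ratio was -0.52 for Col9a1 and -0.89 for Col9a3, both closer to equal than the class ratios. Col9a3 reached 2-fold in no cluster, with a lowest ratio of -0.98. For Col11a2 and Col14a1 the medians were -1.35 and -1.59. Of the mesenchymal clusters, 9 had at least 50 barcodes in both libraries, and Col9a1 was lower in the mutant in 8 of them and at 33.7 CPM in both libraries in cluster 0 (led by Aldh1a2). Its level was highest in cluster 4, led by Coch, a gene of spiral ligament fibrocytes, with 2643 and 1262 CPM. The dividing Coch cells of cluster 9 followed with 2261 and 1142 CPM. Col9a2 and Col11a1 were each lower in 7 of 9 clusters and higher in 2, with ratios of up to 0.35 and 0.32. Col9a3 was lower in 8 of 9 clusters and Col11a2 in 8 of 9, in both cases with cluster 5 (led by Vtn) as the exception, where Col9a3 was at 54.3 and 105.2 CPM. Col14a1 was lower in all 7 clusters where it was measured, and its highest level was in cluster 2 (led by Car3, with Otor) in the wild type, at 152.8 CPM against 33.9 CPM in the mutant, and in cluster 6 in the mutant, at 48.1 CPM against 95.3 CPM in the wild type.

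Clusters 2, 4 and 9 had the most collagens past 2-fold lower. In cluster 2, 9 of 34 measured collagens were at least 2-fold lower, where 2.44% of all genes were. In cluster 4 it was 10 of 36, beside 1.56% of all genes, and in cluster 9 it was 9 of 34, beside 1.81%. Cluster 8 (Cenpa) had 5 of 33 (1.37% of all genes), cluster 7 (Hist1h1b) 3 of 35 (1.59%), cluster 0 2 of 33 (1.32%), cluster 6 (Penk) 2 of 33 (1.2%), cluster 5 2 of 27 (3.13%) and cluster 17 (Cdh6) 2 of 27 (2.73%). Cluster 17 also had 3 of 27 at least 2-fold higher, beside 5.54% of all genes. Collagens together made up 1.67% and 0.973% of the UMIs of cluster 4, whereas in cluster 0 they made up 0.372% and 0.462%. Higher levels in the mutant were as widespread for Col26a1 and Col25a1, each higher in 9 of 9 clusters, with medians of 0.50 and 0.31. Type VI chains were less uniform, with Col6a1 higher in 5 of 9 and Col6a2 and Col6a3 in 6 of 9. Col8a1, higher in the class as a whole, was lower in 5 of the 7 clusters where it was measured. Its class level followed cluster 6 (led by Penk and Gdf10), where it was at 197.4 and 349.9 CPM.

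**Figure D3:**
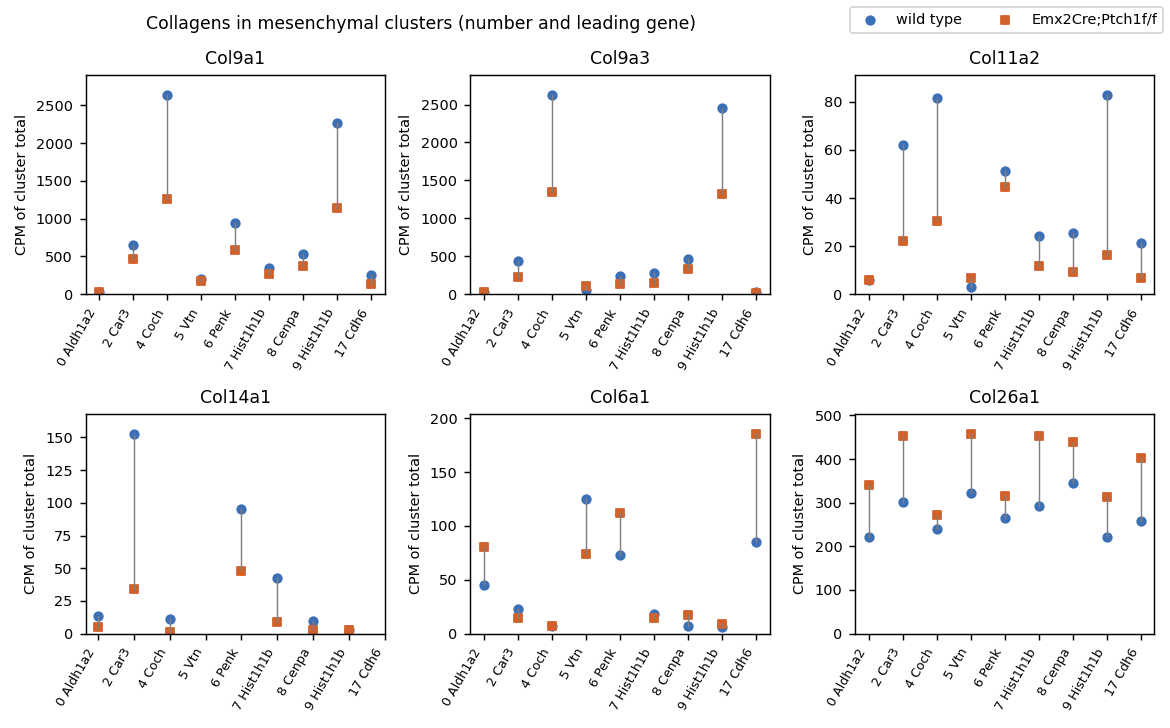
Level in CPM of the cluster total (vertical axis, from 0) of 6 collagens in the mesenchymal clusters with at least 50 barcodes in both libraries, circles for the wild type and squares for the mutant. Clusters in which a gene had under 10 UMIs have no points. Col9a1 and Col9a3 are highest and furthest apart in the Coch clusters 4 and 9. Col11a2 is highest in clusters 4 and 9 of the wild type but in cluster 6 (44.4 CPM) of the mutant, while Col26a1 is higher in the mutant in all 9 clusters.

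The mesenchymal class did not draw on the same clusters in both libraries throughout, nor in the same shares. Cluster 4, where Col9a1 and Col9a3 were highest, gave 681 of the 2788 wild-type and 592 of the 4539 mutant barcodes. Cluster 2 gave 590 and 648. The part of these shares in the class ratios was not tested. Cluster 22, with 19 wild-type and 720 mutant barcodes and a median of 1728 UMIs, was nearly a cluster of the mutant library, and its median lies under the lowest wild-type barcode, which had 3352 UMIs. With that floor set on both libraries, 3 collagens were at least 2-fold lower, where 0.525% of all genes were. Without cluster 22 and the 3 other clusters led by histone or mitosis genes, 4 collagens were at least 2-fold lower, namely Col9a1 beside the 3 above, where 0.476% of all genes were. Among mesenchymal barcodes, 4.84% and 14.6% held over 5 UMIs per 10000 from marker genes of other lineages. At the median depth of cluster 22, 1 such UMI is enough to exceed this, so the 2 percentages are not directly comparable. Leaving these barcodes out gave log2 ratios of -1.76 for Col14a1, -1.24 for Col11a2 and -1.13 for Col9a3.

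Of 38 collagens measured in epithelium, 35 had a ratio below 0, but the wild-type epithelium also held more RNA of mesenchymal marker genes. Among them, 14 were at least 2-fold lower, where 6.27% of all genes were, and 1 was at least 2-fold higher, where 2.13% were. The median was -0.84 over the collagens and 0.03 over all genes. The 6 mesenchymal markers Pdgfra, Prrx1, Twist1, Otor, Tbx18 and Pou3f4 stood in wild-type epithelium at 15% to 21.3% of their mesenchymal level, with a summed level of 1294 CPM and none at 0. In mutant epithelium they stood at 1.93% to 3.35%, with a sum of 110 CPM. The genes of other lineages exceeded 5 UMIs per 10000 in 69.9% and 36.8% of the epithelial barcodes. In the shallowest barcodes, which only the mutant library held, 1 such UMI is enough to exceed this. The 2 percentages are therefore not directly comparable. Haemoglobin took 0.635% and 0.0246% of the UMIs of the class, and the median depth was 7709 and 3721 UMIs. Ratios are therefore given in 2 versions, with all barcodes and without the barcodes over this limit, which leaves 512 wild-type and 1309 mutant barcodes. Without them, 6 of 35 collagens were at least 2-fold lower, beside 2.59% of all genes, and 3 were at least 2-fold higher, beside 3.31%.

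**Figure D4:**
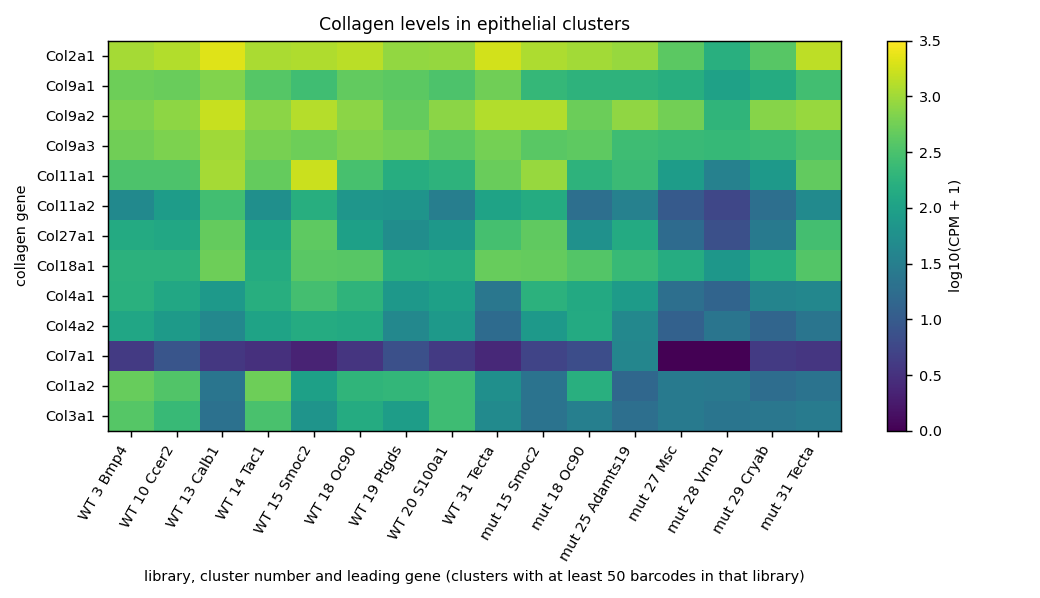
Level of 13 collagens, as log10(CPM + 1), in each epithelial cluster with at least 50 barcodes in the library named (WT, wild type; mut, mutant). Only clusters 15, 18 and 31 reach 50 barcodes in both libraries. Col1a2 and Col3a1 are brighter in most wild-type clusters than in the mutant ones, while Col2a1 and Col9a2 are high in nearly all.

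Most epithelial clusters belonged to 1 library each. Clusters 3 (led by Bmp4), 10 (Ccer2), 13 (Calb1), 14 (Tac1), 19 (Ptgds) and 20 (S100a1) reached 50 barcodes only in the wild type, and clusters 25 (Adamts19), 27 (Msc), 28 (Vmo1) and 29 (Cryab) only in the mutant. Clusters 15 (Smoc2), 18 (Oc90) and 31 (Tecta) were shared. The deposited wild-type library held no barcode under 3352 UMIs, against 500 UMIs in the mutant, and clusters 27, 28 and 29 had medians of 1752, 1965 and 1576 UMIs. With the floor of 3352 UMIs set on both libraries, 1699 and 1077 epithelial barcodes were left, and 14 collagens were at least 2-fold lower, where 6.27% of all genes were. The median share of the mesenchymal markers' level ranged from 2.10% in cluster 13 to 34.1% in cluster 3 among wild-type clusters. In the mutant it ranged from 1.71% in cluster 15 to 5.54% in cluster 27.

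The lowest ratios belonged to collagens whose top class was not epithelium, and most of these moved towards 0 or past it without the barcodes over the limit. Col1a1 was at 23.6 and 1.03 CPM (-3.60) with all barcodes and at -0.24 without those over the limit. Col1a2 went from -2.55 (254.8 and 42.8 CPM) to 0.61, Col3a1 from -2.81 (181.9 and 25.2 CPM) to -0.01, and Col5a2 from -2.74 (45.2 and 5.90 CPM) to -0.65. The other members with ratios of -1 or lower at first and above -1 afterwards were Col6a3 (-1.68 to -0.40), Col8a2 (-2.58 to -0.54), Col13a1 (-1.33 to -0.69), Col23a1 (-2.02 to 0.01), Col24a1 (-1.12 to -0.39) and Col26a1 (-1.54 to 0.57). The part of mesenchymal RNA in these ratios was not tested. Without the barcodes over the limit, Col8a2 rests on 9 and 9 UMIs, Col13a1 on 15 and 15, and Col24a1 on 4 and 3. Their mutant levels there were 0.517, 0.862 and 0.172 CPM, below the 1 CPM added before logs, which pulls such ratios towards 0. Their second ratios therefore cannot show whether the 2-fold difference was lost.

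Other collagens stayed lower in both versions, though some did not under narrower choices of barcodes. Col9a1 was at 456 and 211.9 CPM, -1.10 with all barcodes and -1.01 without those over the limit, but -0.20 when barcodes were left out by a full set of 29 genes, of which the limit used 24 (84 and 457 barcodes left), and -0.18 with the class taken from marker UMIs (38 and 340). Col14a1, at 27.9 and 3.88 CPM, had ratios of -2.56 and -2.19, and -1.77 and -1.81 under the narrower choices. Col12a1 (35.4 and 7.82 CPM, -2.04 and -1.23) and Col8a1 (8.50 and 0.393 CPM, -2.77 and -1.16, the second on 14 and 5 UMIs) also stayed past 2-fold. Col11a2 (-0.95 and -1.43) and Col11a1 (595.1 and 397.2 CPM, -0.58 and -1.08) crossed it only in the second version. With the class from marker UMIs, Col12a1 was at -0.86, Col11a1 at -0.13 and Col11a2 at 0.33. Within 3 of 3 shared clusters Col9a1, Col11a2 and Col11a1 were lower in the mutant, and the median share of the 6 mesenchymal markers was lower there too, at 6.22% and 1.71% in cluster 15, 14.7% and 2.27% in cluster 18, and 3.60% and 2.11% in cluster 31. For Col9a1 the values were 265.5 and 216.3 CPM in cluster 15, 457.7 and 182.6 CPM in cluster 18, and 558.8 and 271.5 CPM in cluster 31. Col11a1 was highest in cluster 15, with 1657 and 909.5 CPM.

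Several main epithelial collagens differed by less than 2-fold. Col9a3 was at 614 and 330.2 CPM (-0.89 and -0.90), and Col2a1 had ratios of -0.27 and -0.35. Col9a2 had -0.16 and -0.43, and its cluster levels ran from 465.3 CPM (cluster 19) to 1625 CPM (cluster 13) among wild-type clusters and from 194.7 CPM (cluster 28) to 1265 CPM (cluster 15) among mutant ones. Col27a1 was at the same level with all barcodes (-0.01, interval -0.07 to 0.06) and at -0.56 without those over the limit. Col18a1 had 0.21 and -0.30, a change of sign. In the shared clusters 15, 18 and 31, the ratios of Col27a1 were 0.02, -0.74 and -0.06 and those of Col18a1 0.20, -0.07 and -0.38. The basement membrane chains Col4a1 (139 and 87.4 CPM, -0.66 and -0.47), Col4a2 (87.2 and 54.2 CPM, -0.68 and -0.36) and Col4a5 (22.9 and 15.1 CPM, -0.57 and -0.85) were lower in both. Col5a1 (28.7 and 16.2 CPM, -0.79 and -0.17) and Col16a1 (20.2 and 13.6 CPM, -0.54 and -0.41) were as well. With the class from marker UMIs, Col9a3 was at 0.60, Col9a2 at 0.78, Col2a1 at 0.62, Col4a5 at 1.33 and Col5a1 at 2.05, so these signs depend on which barcodes stand for the class.

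Col7a1 was the 1 collagen at least 2-fold higher in mutant epithelium, with a ratio of 1.41 (1.08 to 1.73) over all barcodes and 1.22 without those over the limit. The 2-fold call was lost under other settings, with 0.77 when barcodes were left out by the full set of other lineages' genes, 0.66 when the class was taken from marker UMIs, and 0.93 with 5 CPM added. Of its 241 UMIs in mutant epithelium, 186 came from cluster 25, a mutant cluster led by Adamts19 with Tectb and Lgr5, where Col7a1 stood at 39.0 CPM. In each other epithelial cluster with at least 50 barcodes of a library Col7a1 was at or below 7.47 CPM. It was higher in the mutant in 3 of 3 shared clusters, at 1.23 and 4.22 CPM in cluster 15, 2.42 and 5.77 CPM in cluster 18, and 1.5 and 2.63 CPM in cluster 31. Each wild-type value rests on 2 or 3 UMIs, and over the 3 clusters together the ratio of Col7a1 was 0.90, short of 2-fold. Col6a1 and Col25a1 were 2-fold higher only without the barcodes over the limit, at 1.82 (2.14 and 10.1 CPM) and 1.47 (2.54 and 8.79 CPM), where the wild type gave 16 and 19 UMIs.

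**Figure D5:**
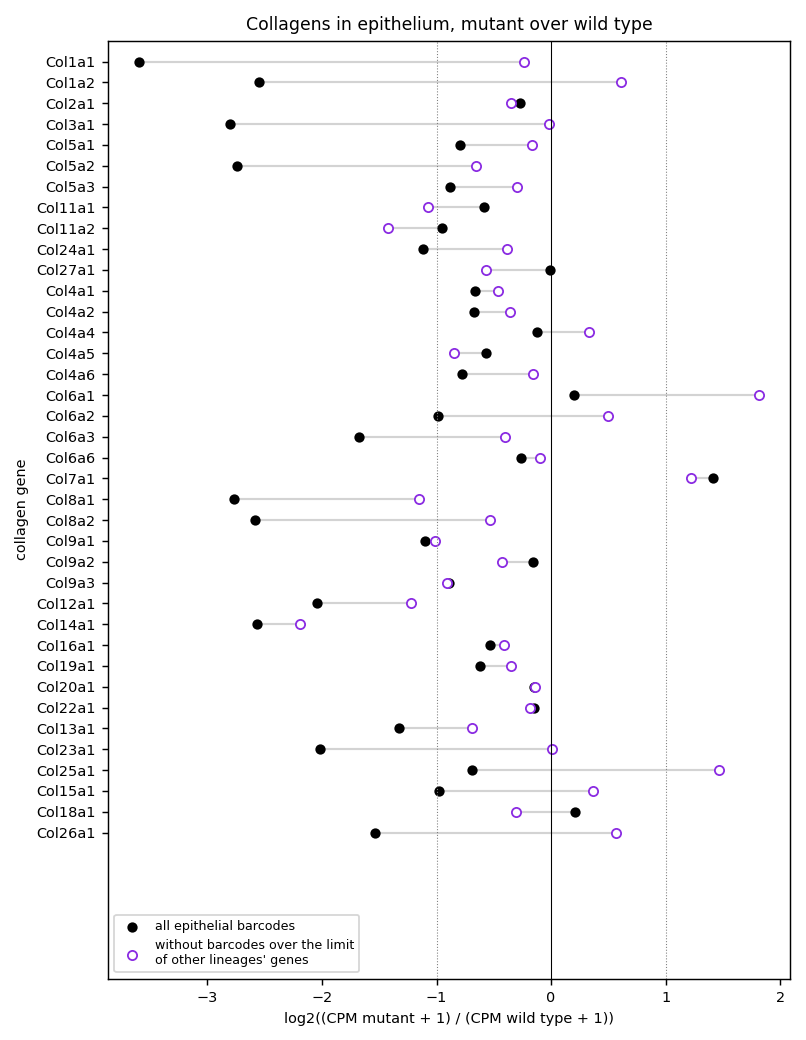
Log2 ratio of mutant to wild-type CPM (1 CPM added) of the 38 collagens measured in epithelium, filled for all barcodes and open without barcodes over 5 UMIs per 10000 of other lineages' genes. Dotted lines mark 2-fold. Col1a1, Col1a2 and Col3a1 move from -2.55 or lower to between -0.24 and 0.61, while Col9a1 and Col14a1 stay at or below -1.01 and -2.19.

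The 6 mesenchymal markers stood in glia at 3.29% to 4.65% of their mesenchymal level in wild-type cells and at 1.90% to 3.92% in mutant cells. Of 31 measured collagens, 2 were at least 2-fold lower, where 1.48% of all genes were, and 1 was at least 2-fold higher, where 2.06% were, with a median of -0.11 over collagens and 0.01 over all genes. Col1a2 was at 230.4 and 100.7 CPM (-1.19, interval -1.36 to -1.01) and Col14a1 at 11.5 and 2.85 CPM (-1.70, interval -2.48 to -0.89). Col14a1 was thus at least 2-fold lower in mesenchyme, epithelium and glia, but in glia its interval includes less than 2-fold and it was at -0.79 with barcodes left out by the full set of genes. Col6a2 was past 2-fold higher at 1.12 on 5 and 20 UMIs (interval 0.06 to 2.07).

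Of the 4 collagens that peaked in glia in both libraries, 2 were close to equal and 2 differed. Col11a1 had a ratio of 0.08 (0.02 to 0.14), and Col5a3 one of 0.08 (-0.21 to 0.37). Col23a1 was lower at -0.39 (-0.51 to -0.27), and Col20a1 was higher at 0.92 (0.46 to 1.39), on 50 and 134 UMIs. Several fibrillar and basement membrane chains were lower by less than 2-fold: Col3a1 (176 and 110.5 CPM, -0.67), Col5a1 (-0.30), Col5a2 (-0.29) and Col4a1 (275.6 and 227.4 CPM, -0.28). Col12a1 (110.5 and 76.5 CPM, -0.52), Col9a1 (28.8 and 18.1 CPM, -0.65), Col9a2 (128.8 and 98.9 CPM, -0.38), Col9a3 (82.9 and 65.8 CPM, -0.33) and Col16a1 (-0.40) were likewise lower, though without barcodes over the limit Col9a1 was at 0.15 and Col9a3 at -0.07. Col6a3 was higher (35.1 and 51.8 CPM, 0.55). Intervals of Col2a1 (-0.14), Col4a2 (-0.15), Col18a1, Col25a1, Col26a1 and Col27a1 included 0.

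Genes that fold, cross-link, bind or degrade collagen were read against the 0.53% of all genes at least 2-fold lower and the 0.475% at least 2-fold higher in mesenchyme. Of the 18 genes of chain folding and hydroxylation, all 18 were measured there and 0 were 2-fold apart, with a median of -0.06. Serpinh1, the collagen chaperone Hsp47, was at 964.5 and 904.7 CPM (-0.09), a value given as an example chosen after its level was seen. Of 13 measured propeptide and cross-linking genes, 1 was lower, Lox, the enzyme that cross-links collagen fibrils, at 70.8 and 32.2 CPM (-1.11). Of 13 fibril-associated genes 1 was lower, the small proteoglycan Ogn (osteoglycin), at 379.3 and 134.4 CPM (-1.49). Of 13 basement membrane partners 1 was lower, Npnt (nephronectin), at 12.4 and 4.20 CPM (-1.37). None of 7 receptors and none of 9 degradation genes was 2-fold apart.

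In epithelium, where 6.27% of all genes were at least 2-fold lower, 2 of 13 propeptide and cross-linking genes, 2 of 7 receptors, 5 of 8 degradation genes, 5 of 9 fibril-associated genes and 2 of 13 basement membrane partners were, and 0 of 17 folding genes. The 14 of them with at least 100 UMIs were Pcolce, Lox, Itga1, Ddr2, Mmp2, Timp1, Timp3, Mrc2, Ctsk, Bgn, Ogn, Aspn, Lama4 and Nid1, with ratios from -3.07 for Bgn to -1.07 for Mmp2. Without barcodes over the limit only Ogn remained past 2-fold among these, at -2.10, and the others lay between -0.88 (Lox) and 0.43 (Nid1). Other genes of the lists passed 2-fold only without those barcodes: Lum (-0.76 to -1.01), Colgalt2 (-0.80 to -1.04) and Loxl2 (-0.29 to 1.30). Adamts14, a procollagen protease, was the 1 gene at least 2-fold higher, where 2.13% of all genes were (4.22 and 10.6 CPM, 1.15), with 0.50 without those barcodes. In glia, Mmp16 was higher (38.0 and 78.2 CPM, 1.02) and Lama2 lower (31.8 and 14.0 CPM, -1.13).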

How the data were processed

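Single-cell RNA was measured in 1 wild-type and 1 Emx2Cre;Ptch1f/f library of E16.5 cochleae, digested with collagenase/dispase at 1 mg/mL for 30 min at 37 °C. Values are UMI counts for every gene and barcode, deposited without any scaling. Cell Ranger 6.0.0 and the mm10 build are named in the submitters' processing notes, but per the file headers the mutant counts came from Cell Ranger 5.0.1. Per the labels, the sample descriptions name different kit versions for the 2 libraries and the protocol names 1. Collagen members, gene lists and settings were chosen with earlier results of these data known.

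Barcodes with at least 1000 UMIs, 500 genes and at most 10% mitochondrial UMIs were kept (6440 and 9373). A doublet caller marked 0 and 0, so the top-scored 0.8% per 1000 cells were removed (332 and 703). Clustering (scanpy 1.11.5, igraph 0.11.9) used 2000 variable genes without collagens, 30 components, 15 neighbours and Leiden resolution 1, giving 33 clusters, with no correction between libraries. Clusters were named from 12 class lists and 6 epithelial lists, if 3 or more markers reached 10 CPM. A cluster stayed unnamed if its top genes held more markers of another class, or if it was shallow with none of its own among them. How lists were scored, and reading chondrocyte and osteoblast lists as mesenchymal, was settled after the data were seen. A cluster led by Ccn3 (381 and 1091 barcodes) and 1 led by Vwf (60 in the wild type) stayed unnamed. Both had more markers of another class among their top genes. The macrophage class was also led by S100a8 and S100a9.

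UMIs were summed per library and class and divided by the class total (CPM), with exact Poisson 95% intervals, exact binomial intervals for ratios and 1 CPM added before logs (scipy 1.17.1). Members with at least 10 UMIs in the class were measured. In a class, members with at least 100 UMIs and 20 CPM in 1 library, or 2-fold apart with at least 30 UMIs, were to be named, and pathway genes if 2-fold apart with at least 100 UMIs. The limit on genes of other lineages used 24 genes. It is a reduced form, chosen after the data were seen, of a set of 29, from which Dcn, Lum, Postn, Egfl7 and Rgs5 were dropped. The recovery of known ratios and the Poisson intervals of counts were checked on simulated Poisson counts. The binomial intervals of ratios and variation between barcodes were not part of that check. Promoter windows came from RefSeq, and exon positions from GENCODE vM21, in which 32158 of 32285 gene identifiers were found.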

Additional observations from a re-analysis of the deposited data

Results flagged for a closer look

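In all, 7 results were singled out in which a collagen was on opposite sides of 0 in 2 cell classes. It was at least 2-fold apart between genotypes in 1 class, and both counting intervals excluded 0. Col7a1 (1.41 in epithelium, -0.31 in mesenchyme), Col24a1 (-1.12 and 0.14) and Col26a1 (-1.54 in epithelium, 0.24 in glia) also lay on opposite sides. They are not among the 7, and 1 interval of each included 0. Each log2 ratio is mutant over wild type, and the difference between classes was not tested, since each genotype has 1 library. In epithelium Col8a1 had -2.77 against 0.59 in mesenchyme, Col13a1 -1.33 against 0.60, Col23a1 -2.02 against 0.53, and Col26a1 -1.54 against 0.44. Col6a3 had -1.68 in epithelium against 0.13 in mesenchyme and against 0.55 in glia. Col6a2 had 1.12 in glia against -0.99 in epithelium. Without barcodes over the limit of other lineages' genes, the epithelial ratio of Col26a1 was 0.57 and that of Col23a1 0.01, on the mesenchymal side of 0, and that of Col6a2 was 0.50, on the glial side of 0, while Col8a1 (-1.16), Col13a1 (-0.69) and Col6a3 (-0.40) stayed below 0.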

How the results depend on the processing

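Over 12 planned settings and 4 added after the data were seen, 96 summary values (counts of collagens 2-fold apart and class medians) stayed within 1.5 times of the count or 0.1 of the median, and 27 did not. In epithelium the median (-0.84) was -1.03 with 0.1 CPM and -0.59 with 5 CPM added, -0.50 without doublet removal and -0.69 at resolution 2. Leaving out barcodes by the full set of other lineages' genes (84 and 457 barcodes) gave 3 higher (Col1a2, Col6a1 and Col25a1, not Col7a1), 2 lower and a median of -0.073. With class by marker UMIs (38 and 340 barcodes) these were 4, 2 and 0.41, with the reduced set 3, 6 and -0.35, and with shared clusters only 0, 8 and -0.66. With 5 CPM added, 0 were higher. With marker UMIs Col5a1 (2.05), Col4a5 (1.33), Col25a1 (3.68) and Col11a2 (0.33) were among those that turned. Of 25, 24 and 35 collagens measured with the full set, by marker UMIs and with the reduced set, 11, 11 and 8 changed sign. Among those at least 2-fold apart at first, signs turned for Col1a2 (2.01, full set; 0.78, marker UMIs; 0.61, reduced set), Col23a1 (0.58, 0.44 and 0.012), Col26a1 (0.31, 0.47 and 0.57), and with the full set Col3a1 (0.45) and Col5a2 (0.053). In mesenchyme 1 was higher with 0.1 CPM added, and 5 were lower with the full set, by marker UMIs and with the Ccn3-led cluster added. In glia 0 were higher with 5 CPM added, with at least 50 UMIs and without doublet removal, 1 was lower with at least 50 UMIs, and the median was -0.22 with at least 50 UMIs and -0.28 without doublet removal. Of the single collagen ratios under these settings, 1185 stayed within the counting interval given with all barcodes, 249 moved outside it, and 11, of collagens at least 2-fold apart at first and named above, changed sign. The cause was not tested. Other scaling moved the median of all genes by less than 0.1. The marker UMI setting was not run for glia. No paired analysis was possible because each genotype has 1 library.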

Other observations

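Melanocyte-like barcodes, 47 and 23 in the wild-type and mutant libraries and so below the 50 barcodes required of the classes above, had Col14a1 at 207.6 and 80.8 CPM, higher than in mesenchyme in both libraries. These values rest on 102 and 27 UMIs.

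Col1a1 differed between the libraries in opposite directions in different mesenchymal clusters. It was at 148.2 and 23.7 CPM in cluster 4 (led by Coch; 659 and 122 UMIs) but at 2.37 and 28.3 CPM in cluster 17 (led by Cdh6), the latter on 2 and 45 UMIs. In cluster 6 (led by Penk) it was at 117 and 111 CPM. These clusters were singled out after their values were seen.

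The prolyl hydroxylase subunit P4ha1, chosen after its values were seen, had a ratio below 0 in each of the 3 compared classes, at -0.61 in epithelium, -0.76 in mesenchyme and -0.85 in glia.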
